A study of Mus musculus with 4 samples.

Results

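The neutrophil granule and receptor genes described here are 10 of the 34797 gene names on the array: Fpr1, Fpr2, Csf3r, Ngp, Ltf, Mmp8, Trem1, Clec4d, Clec4e and Retnlg. They were chosen by name, and every spot that carried one of these names and was not a control was used, which gave 1 spot of 1 probe for each of the 10 genes. RNA came from ear tissue of 4 mice collected 48 h after the ear had been treated with 2,4-dinitrofluorobenzene (DNFB), which sensitises skin and makes it inflamed on contact. The comparison was of 2 mutant mice, labelled RelAE-MUT with the genotype K14Cre RelAfl/fl, with 2 wild-type mice of the genotype RelAfl/fl, and addressed what epidermal RelA, a subunit of NF-kB also called p65, does in skin inflamed by an allergen. All 4 mice carried the floxed allele and all 4 ears had DNFB, so what DNFB itself changes cannot be read from these ears. The keratin 14 promoter drives Cre in basal keratinocytes, whereas the genes described here are known mainly from neutrophils and other myeloid cells. Only the mutants carried Cre, so effects of Cre and of the targeted allele cannot be told apart. From each ear, 100 ng of RNA was labelled with Cy3 and hybridised to a one-colour expression array.

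Neutrophils are short-lived white blood cells that leave the blood for inflamed tissue. They find their way with receptors for formylated peptides and chemokines, depend on granulocyte colony-stimulating factor for production and survival, and carry preformed proteins in granules that they release on activation. Lectin receptors and TREM-1 on their surface, shared with monocytes and macrophages, sense microbes and damaged cells through adapters with activation motifs.

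The probes themselves set what can be read from these genes, and stretches of 30 bases are shown for the 6 probes on which the results turn. Positions are those of the whole 60-base probe on mouse build mm9, as the deposited files give them. Capitals mark runs of 16 bases that at least 3 other probes of the array also hold.
Fpr2, chr17:18030540-18030599, plus strand: aaattcttgacatgtttgttaacccaacaa
Mmp8, chr9:7568238-7568297, plus strand: tttattctgaggagatttgggaagaatcag
Clec4d, chr6:123224788-123224847, plus strand: aggatttgtaaattacctggaataacattc
Clec4e, chr6:123232878-123232937, minus strand: actggatttcacctgtacttgtatctactg
Csf3r, chr4:125721478-125721537, plus strand: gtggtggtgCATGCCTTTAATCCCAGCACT
Trem1, chr17:48385849-48385908, plus strand: TGTTGTTGTTGTTGTTGTTGTTGTTGTTGT
The probes of Fpr2, Mmp8, Clec4d and Clec4e shared no run of 16 bases with any of the other probes among 55681. The Csf3r probe shared one with 10 other probes, and the letters in capitals are those of the mouse B1 short interspersed repeat. The Trem1 probe, largely a repeat of the triplet GTT, shared one with 19 other probes. Runs of the Csf3r probe also stood in 22 of 32851 promoter windows of mouse genes, and runs of the Trem1 probe in 28. Whether other transcripts with these repeats add to the signal of the Csf3r and Trem1 spots was not tested. The Ngp probe shared a run with 1 other probe, and the probes of Fpr1, Ltf and Retnlg with none.

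Across the whole arrays, 61.2% to 64.3% of the spots that were not controls lay well above background, with 0 saturated spots. The array of mutant mouse 2 has a damaged corner, in which 57.3% of spots were well above background, against 61.0% to 63.7% on the other arrays. Spots there were set to missing on that array. The number of arrays limits the precision, and exact permutation of 2 against 2 mice cannot give a p below 0.333. Limma tested 23818 genes and gave an adjusted p under 0.05 to 2 that were higher and 2 that were lower in the mutants. The targeted gene itself, Rela, stood at 4.60 in mutant mouse 1 and at 4.49 and 4.61 in wild-type mice 1 and 2 (log2 processed intensity minus that of the 75th percentile spot of the same array, the scale of all log2 values here). Its spot lies in the damaged corner for mutant mouse 2, and which exons were deleted is not stated in the labels, so the probe does not check the deletion.

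No difference between mutant and wild-type ears passed the test for any of the granule and receptor genes. Of the 10, 8 were tested with limma, 3 had higher and 5 lower means in the mutants, and 0 had an adjusted p under 0.05, where 0.0168% of all genes tested had one. In the fit over all probes, 0 of the 8 passed as well, where 0.0296% of all probes did. At an unadjusted p under 0.05, 0 of the 8 were found, where 6.79% of all genes were. The log2 fold change (mutant minus wild type) had a median of -0.20 over the 8 genes and 0.01 over all genes tested. Without mutant mouse 2 the median over the 8 genes was 0.22, and without mutant mouse 1 it was -0.49. The spread lay mainly in 1 mouse. For Fpr2, Mmp8, Clec4d and Clec4e, mutant mouse 2 lay about 1 log2 unit below the wild-type mean and below each other mouse. Mutant mouse 1 lay between the wild-type mice for Fpr2 and above both for Mmp8, Clec4d and Clec4e.

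**Figure D1:**
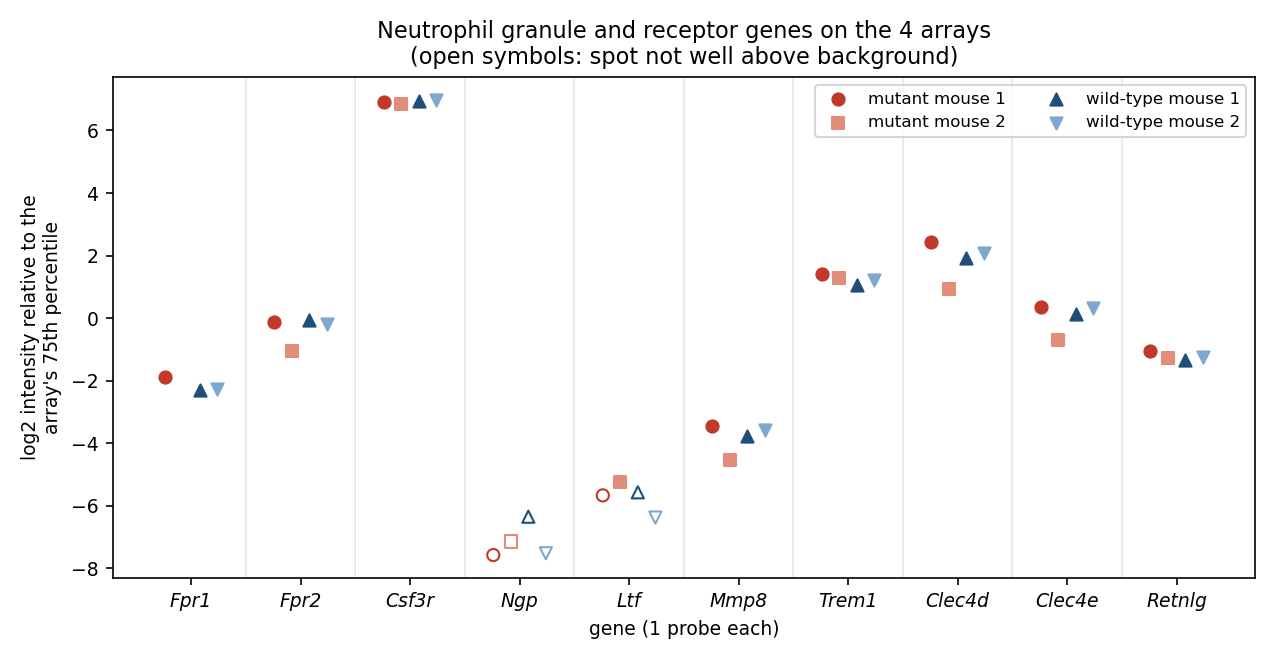
Log2 intensity above or below the 75th percentile of the array (vertical axis) for each of the 10 genes (horizontal axis), with 1 symbol per mouse and open symbols where the spot was not well above background. Mutant mouse 2 stands below the other 3 mice for Fpr2, Mmp8, Clec4d and Clec4e, and has no usable spot for Fpr1.

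Among the receptors that guide and sustain neutrophils, Fpr2, a receptor for formylated peptides, serum amyloid A and annexin A1, had log2 values of -0.13 and -1.04 in mutant mice 1 and 2, against -0.07 and -0.18 in wild-type mice 1 and 2. Only mutant mouse 2 was low, and the groups overlapped, since mutant mouse 1 lay between the wild-type mice. The log2 fold change was -0.46 ± 0.32 (SE, n = 2 mice per group; limma, adjusted p = 0.877), with a 95% interval from -1.29 to 0.37. Fpr1, the high-affinity receptor for bacterial formylated peptides, had -1.88 in mutant mouse 1, against -2.31 and -2.27 in the wild-type mice. Its spot on the array of mutant mouse 2 lies in the damaged corner and was dropped. There the intensity was 3.18, a surrogate value not well above background, against 167 in mutant mouse 1 and 133 and 128 in the wild-type mice. The fold change of Fpr1 therefore rests on mutant mouse 1 alone, at 0.41 ± 0.14 (limma, adjusted p = 0.732), with an interval from -0.0016 to 0.82.

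Csf3r, the receptor for granulocyte colony-stimulating factor, had log2 values of 6.92 and 6.84 in the mutants, against 6.94 and 6.99 in the wild-type mice. Both mutants lay below both wild-type mice, and the difference did not pass the test, with a log2 fold change of -0.08 ± 0.11 (limma, adjusted p = 0.926) and an interval from -0.37 to 0.20. This is the spot whose probe holds the B1 repeat shown above. Its intensities were 74662.7 and 67824.3 in the mutants, against 81188.5 and 78710.3 in the wild-type mice, the highest of the genes described here. How much of this signal is Csf3r was not tested.

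The granule proteins gave little signal. Mmp8, the neutrophil collagenase of specific granules, had log2 values of -3.44 and -4.52 in the mutants, against -3.75 and -3.57 in the wild-type mice. Mutant mouse 1 was the highest of the 4 and mutant mouse 2 the lowest, so the groups overlapped. The log2 fold change was -0.32 ± 0.37 (limma, adjusted p = 0.921), with an interval from -1.28 to 0.65. Ltf, which encodes the iron-binding protein lactoferrin, had intensities of 12.2 and 15.7 in the mutants, against 13.9 and 7.48 in the wild-type mice, and was well above background only in mutant mouse 2. Ngp, neutrophilic granule protein, had intensities of 3.24 and 4.20 in the mutants, against 8.12 and 3.39 in the wild-type mice, and was well above background on 0 of 4 arrays. Ltf and Ngp were not tested, and their values have no order. On the reference, the Ngp probe spans 549 bases (chr9:110324266-110324814), more than the 60 bases of the probe.

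The activating receptors divided. Clec4d, a lectin receptor of myeloid cells also called MCL, had log2 values of 2.42 and 0.95 in the mutants, against 1.92 and 2.08 in the wild-type mice. The 2 mutants enclosed the wild-type mice from both sides and were 2.79-fold apart. The log2 fold change was -0.32 ± 0.49 (limma, adjusted p = 0.937), with an interval from -1.60 to 0.96, the widest of the 8. Clec4e, also called Mincle, pairs with Clec4d and binds mycobacterial glycolipids and a protein released by dying cells. It had 0.35 and -0.70 in the mutants, against 0.12 and 0.31 in the wild-type mice. Again mutant mouse 1 was the highest and mutant mouse 2 the lowest, 2.07-fold apart, and the groups overlapped. The log2 fold change was -0.39 ± 0.36 (limma, adjusted p = 0.901), with an interval from -1.33 to 0.55.

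Trem1, which encodes an amplifier of inflammatory signals on neutrophils and monocytes, had log2 values of 1.42 and 1.28 in the mutants, against 1.07 and 1.20 in the wild-type mice. Both mutants lay above both wild-type mice, and the difference of 0.21 ± 0.12 did not pass the test (limma, adjusted p = 0.843; interval from -0.10 to 0.53). Retnlg, a secreted resistin-like protein of mouse neutrophils, had -1.06 and -1.29 in the mutants, against -1.33 and -1.23 in the wild-type mice. The groups overlapped, and the log2 fold change was 0.11 ± 0.13 (limma, adjusted p = 0.924), with an interval from -0.24 to 0.45.

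**Figure D2:**
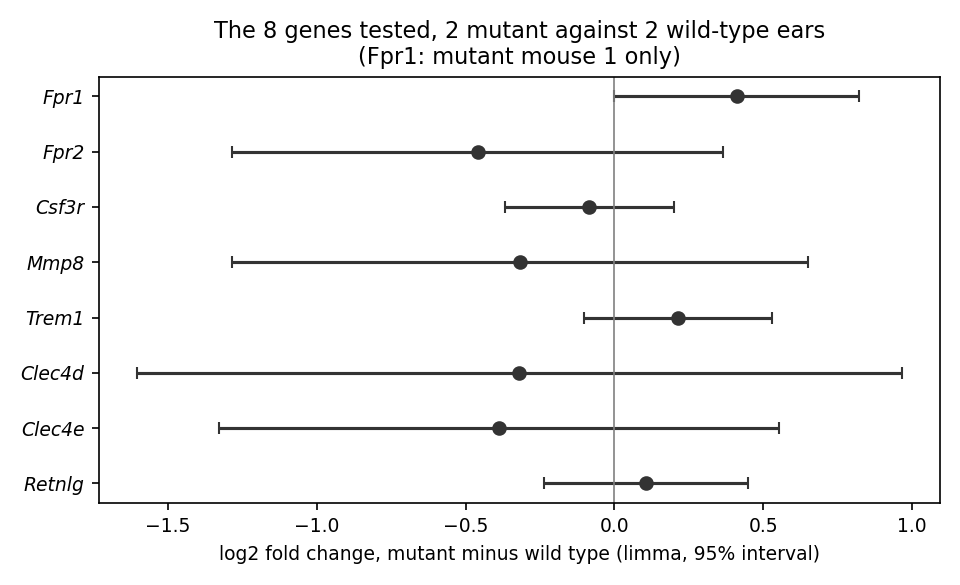
Log2 fold change, mutant minus wild type, for the 8 genes tested (horizontal axis; bars are limma's 95% intervals, from 2 mutant and 2 wild-type ears, with mutant mouse 1 alone for Fpr1). Every interval holds 0, and those of Fpr2, Mmp8, Clec4d and Clec4e are the widest.

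Of the 7 genes measured above background on all 4 arrays, the groups did not overlap for 2, Trem1 and Csf3r. These are the genes whose probes hold the repeats shown above. Of all genes measured on 4 arrays, 36% had no overlap. Mutant mouse 2 was the lowest of the 4 mice for 5 of the 7 genes, and for 24.2% of all genes. Mutant mouse 1 was the highest for 5 of the 7, and for 26% of all genes. Mutant mouse 2 lay more than 0.5 log2 units below each other mouse for 4 of the 7, where 1.35% of all genes did. This margin was chosen after the values were seen. Mutant mouse 2 differed from the wild-type mean by -0.92 for Fpr2, -0.86 for Mmp8, -1.06 for Clec4d and -0.91 for Clec4e. For mutant mouse 1 these differences were 0.00, 0.22, 0.42 and 0.14 in the same order. The 2 wild-type mice were at most 0.19 apart for any of the 8 genes tested.

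The 4 low spots lay outside the damaged corner. For Fpr2, 0 of the 127 spots nearby on the array of mutant mouse 2 were as low against the other 3 arrays as the Fpr2 spot, and the median of these neighbours was 0.03. The same held for 0 of 129 neighbours of Clec4d, 0 of 118 of Clec4e and 2 of 128 of Mmp8, with neighbour medians of -0.02, 0.08 and 0.00. The 4 spots were picked for being low on this array. In mutant mouse 2, 1.35% of all genes lay below each other mouse by more than the margin stated above. Low counts of neighbours were therefore likely for any spots picked in this way. Whether a local fault lowered the 4 spots was not tested.

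**Figure D3:**
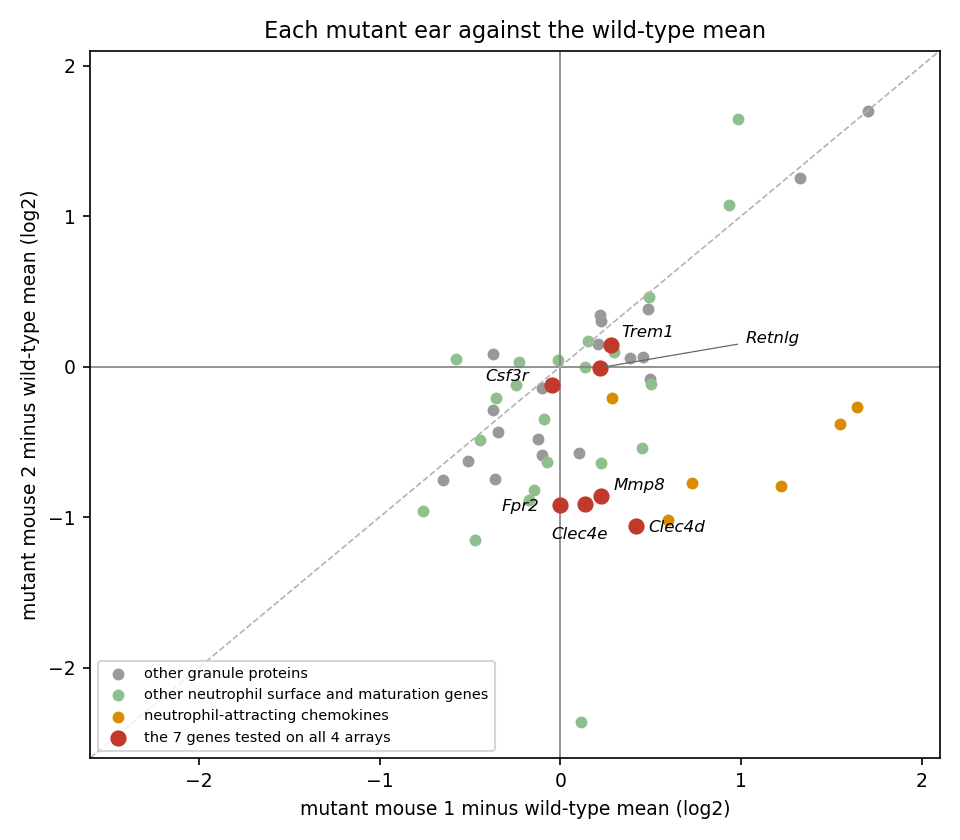
Log2 difference from the wild-type mean in mutant mouse 1 (horizontal axis) and mutant mouse 2 (vertical axis), with 1 point per gene and a dashed line where the 2 mutants are equal. Fpr2, Mmp8, Clec4d and Clec4e lie near -1 for mutant mouse 2 and between 0.00 and 0.42 for mutant mouse 1, and all 6 chemokines lie below the dashed line.

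The chemokines that draw neutrophils into tissue through Cxcr2, with the platelet chemokine Pf4, were lowest in mutant mouse 2 for 6 of 6 genes. That mouse was the lowest for 24.2% of all genes. The 6 genes were named after their values were seen, and the groups overlapped in each. Cxcl1 had log2 values of 2.00 and 0.09 in the mutants, against 0.24 and 0.49 in the wild-type mice. Cxcl5 had 3.18 and 1.68 in the mutants, against 2.35 and 2.55 in the wild-type mice. Cxcl2 had -0.53 and -2.14 in the mutants, against -1.01 and -1.24 in the wild-type mice. In each, mutant mouse 1 was above and mutant mouse 2 below both wild-type mice. Cxcl3, Ppbp and Pf4 had the same order of mice around the wild-type mean, and the medians over the 6 genes were 0.98 in mutant mouse 1 and -0.58 in mutant mouse 2. Limma gave 0 of the 6 an unadjusted p under 0.05, where 6.79% of all genes had one, and the median log2 fold change was 0.13. C5ar1, the complement C5a receptor, also named after its values were seen, had -2.06 and -4.53 in the mutants, against -2.18 and -2.16 in the wild-type mice.

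The 6 genes taken as defining neutrophil markers did not share this order. Ly6g, the surface antigen used to identify mouse neutrophils, had 2.09 and 2.35 in the mutants, against 2.19 and 2.44 in the wild-type mice. Cxcr2, the receptor of the chemokines above, had 0.10 and -0.10 in the mutants, against -0.38 and -0.03 in the wild-type mice. Of the 6 defining markers, all tested, mutant mouse 2 was the lowest for 1, Elane, where it was the lowest for 24.2% of all genes. Elane, which encodes neutrophil elastase, had 0.15 and 0.11 in the mutants, against 0.15 and 0.35 in the wild-type mice. Mpo, the myeloperoxidase of primary granules, had -3.94 and -3.48 in the mutants, against -3.20 and -3.93 in the wild-type mice. Camp, the cathelicidin, had -2.71 and -2.77 in the mutants, against -2.80 and -3.04 in the wild-type mice. Cd177, a surface glycoprotein of neutrophils, had -4.55 and -4.47 in the mutants, against -4.24 and -4.12 in the wild-type mice. The median log2 fold change of the 6 was -0.11, with 0 past an adjusted p of 0.05, and their summed linear levels were 6.69 and 7.39 in the mutants, against 6.75 and 7.94 in the wild-type mice. Ly6g was the brightest of the 6 and weighs most in these sums, whereas Mpo, Camp and Cd177 were dim. Whether RNA of these genes follows the number of neutrophils in the ear was not tested. In RNA of whole ears, fewer cells of a type and less RNA per cell cannot be told apart.

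Other granule and cytosolic proteins of neutrophils went both ways. Of 21, 19 were tested, and 3 were higher and 5 lower in the mutants at an unadjusted p under 0.05. Such a p, in either direction, was found for 6.79% of all genes. The 19 had 0 past the adjusted threshold and a median of -0.12. S100a8, a subunit of calprotectin that stressed keratinocytes also make, had 6.98 and 6.97 in the mutants, against 5.06 and 5.49 in the wild-type mice, a log2 fold change of 1.70 ± 0.18 (limma, adjusted p = 0.295). Its partner S100a9 had 1.29 ± 0.14 (limma, adjusted p = 0.295). Both mutants were close to each other and above both wild-type mice for both genes. Among the lower ones, Mmp9, the gelatinase of tertiary granules, had -0.70 ± 0.13 (limma, adjusted p = 0.408) and Lyz2, lysozyme, -0.57 ± 0.12 (limma, adjusted p = 0.460).

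Of 23 further genes of the neutrophil surface and of maturation, 23 were tested, and 3 were higher and 3 lower at an unadjusted p under 0.05. The share of all genes with such a p was 6.79%, and the median of the list was -0.21. Cebpe, a transcription factor of granulocyte maturation that eosinophils use too, had 1.31 ± 0.30, and Stfa2l1, a stefin, 1.01 ± 0.13. Ptafr, the receptor for platelet-activating factor, had -0.86 ± 0.16. The adjusted p from limma of Cebpe, Stfa2l1 and Ptafr lay between 0.318 and 0.502.

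Partners of the receptors were described in the same way. Of the ligands and relatives of the formyl peptide receptors, 5 of 9 were tested, with 2 higher and 0 lower at an unadjusted p under 0.05. Among all genes 6.79% had such a p, and the median of the list was 0.30. The Fpr2 ligands Saa3 and Saa1, serum amyloid A proteins, had 0.75 ± 0.27 and 0.72 ± 0.23 (limma, adjusted p = 0.714 and 0.661), and Anxa1, annexin A1, had 0.14 ± 0.12. Csf3, the ligand of Csf3r, was not tested, with -4.73 and -5.97 in the mutants, against -5.27 and -5.16 in the wild-type mice, and was well above background on 2 of 4 arrays. Of the 7 genes of that pathway 5 were tested, and 0 had an unadjusted p under 0.05. Csf2rb and Csf2rb2, receptor chains for related cytokines, had -0.25 ± 0.14 and -0.21 ± 0.12, and the kinase Jak2 had -0.09 ± 0.11.

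Of 7 Trem genes, adapters and ligands, 7 were tested, with 0 higher and 2 lower at an unadjusted p under 0.05 and a median of -0.17. Such a p was found for 6.79% of all genes. Treml2 had -0.75 ± 0.13 and Tyrobp, the adapter DAP12 through which Trem1 signals, -0.38 ± 0.14 (limma, adjusted p = 0.397 and 0.713). Pglyrp1, a peptidoglycan recognition protein that binds Trem1, had 0.28 ± 0.11. Of 12 Clec4 lectins and adapters, 10 were tested, with 0 higher and 4 lower at an unadjusted p under 0.05. Mutant mouse 2 was the lowest for 9 of these 10, and for 24.2% of all genes. Card9, the adapter downstream of Mincle, had -0.53 ± 0.12, Clec7a, the beta-glucan receptor dectin-1, -0.41 ± 0.12, Fcer1g, the signalling chain that Clec4e uses, -0.39 ± 0.12, and Clec4a1 -0.37 ± 0.13. The adjusted p from limma of these 4 genes lay between 0.498 and 0.683. Both mutants lay below both wild-type mice for each, but the 4 were named for having no overlap between the groups.

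The resistin family had 2 of 3 genes tested, and Retn and Retnla overlapped between the groups. Of 10 other matrix metalloproteinases 7 were tested, with 0 higher and 2 lower at an unadjusted p under 0.05 and a median of -0.10. The share of all genes with such a p was 6.79%. Mmp13, an interstitial collagenase, had -3.22 and -3.36 in the mutants, against -1.80 and -2.11 in the wild-type mice, with -1.33 ± 0.15 (limma, adjusted p = 0.297). Mmp13 was named for a large fold change without overlap between the groups. Both mutants were low for Mmp13, whereas for Mmp8, another collagenase, mutant mouse 2 was.

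Markers of other cell types of the ear were described in the same way, with 0 past an adjusted p of 0.05. Eosinophil markers were higher in the mutants for 7 of 7 tested of 8, with 5 at an unadjusted p under 0.05, where 6.79% of all genes had one. Their median was 0.95, with summed levels of 4.49 and 6.19 in the mutants, against 3.26 and 1.92 in the wild-type mice. Prg2, major basic protein, had 2.11 ± 0.70, Ear2 1.26 ± 0.38, Ear1 1.16 ± 0.35 and Siglecf 0.95 ± 0.24, with adjusted p from limma between 0.548 and 0.678. Epx, eosinophil peroxidase, was well above background on 0 of 4 arrays, with -7.57 in wild-type mouse 2. Prg2 was as dim in that mouse, at -7.52, against -5.40 in wild-type mouse 1 and -4.54 and -4.16 in the mutants. Prg2 thus passed the filter only through the mutants, where it was higher, and the size of its fold change depends on this floor. Mutant mouse 2 was the highest of the 4 for the median of these markers, at 1.23 above the wild-type mean.

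Monocyte and macrophage markers, which belong to cells that also express Trem1, Clec4d and Clec4e, had 11 of 12 tested, 0 higher and 3 lower at an unadjusted p under 0.05 and a median of -0.18. Their summed levels were 109 and 99.8 in the mutants, against 124 and 109 in the wild-type mice. Mutant mouse 2 was the lowest for 7 of the 11, and for 24.2% of all genes. Fcgr1, an IgG receptor, had -0.61 ± 0.22, Cd68 -0.40 ± 0.11, Ccr2 -0.35 ± 0.13 and Adgre1 -0.16 ± 0.12. The part of monocytes and macrophages in the values of the receptor genes was not tested. Red blood cell markers, 4 of 5 tested, had summed levels of 57.2 and 38.0 in the mutants, against 116 and 47.4 in the wild-type mice, over the 3 with a value on every array, and mutant mouse 2 was the lowest for 3 of these 3. Keratinocyte keratins, 6 of 6 tested, had a median of 0.31. Medians were -0.31 over 6 T cell, -0.39 over 3 B cell, -0.01 over 6 dendritic and Langerhans cell and -0.04 over 7 mast cell and basophil markers. Limma called 0 of the 56 markers tested at an adjusted p under 0.05. It gave 5 higher and 6 lower at an unadjusted p under 0.05, where 6.79% of all genes had one.

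**Figure D4:**
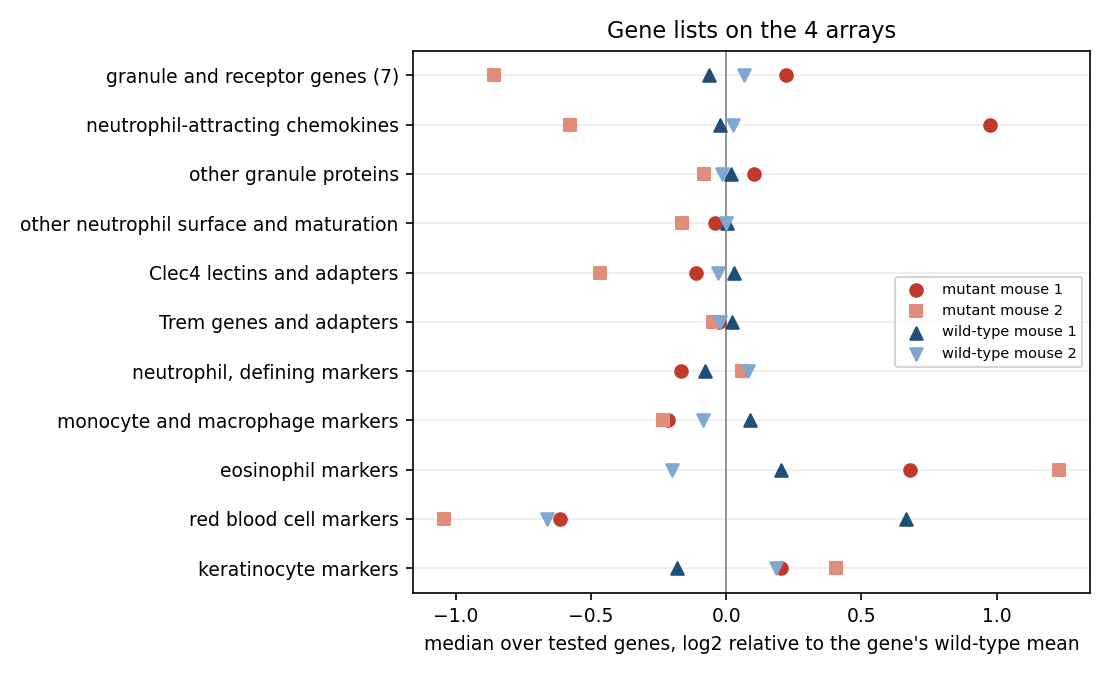
Median over the genes of each list measured on all 4 arrays, as log2 difference from each gene's wild-type mean (horizontal axis), with 1 symbol per mouse. The granule and receptor genes and the chemokines have mutant mouse 2 at the low end, at -0.86 and -0.58, and mutant mouse 1 at the high end, at 0.22 and 0.98. Mutant mouse 2 is also the lowest for the Clec4 list (-0.47), the red blood cell markers (-1.04) and the monocyte and macrophage markers (-0.24). The same holds for other granule proteins (-0.08), surface and maturation genes (-0.16) and the Trem list (-0.05). The neutrophil markers of mutant mouse 2 stand at 0.06.

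Genes with 4 values most like the median profile of the 7 genes, each centred on its own mean, included Zfp324, Efcab7, Ccr1l1, Wdr92 and Tmem72. Their root mean square difference from that profile over 4 arrays lay between 0.07 and 0.08 log2 units. Of the 7 genes themselves, Clec4e had 0.08, Mmp8 0.09, Fpr2 0.11 and Clec4d 0.21. Csf3r had 0.33, Retnlg 0.34 and Trem1 0.40. The profile was made from these 7 genes, so their own differences are not independent of it. The likeness of the other genes rests on 4 values per gene.

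The windows of 250 bases before the start of the genes were searched because 4 of them were low in the same mouse. All 10 genes matched the RefSeq table of build GRCm38.p6. The windows of Clec4e and Mmp8 are shown on the strand of the gene, with matches in capitals to the C/EBP core TTNNGCAA and the PU.1 core GAGGAA, motifs of myeloid transcription factors, on either strand.
Clec4e, chr6:123289872-123290121, minus strand: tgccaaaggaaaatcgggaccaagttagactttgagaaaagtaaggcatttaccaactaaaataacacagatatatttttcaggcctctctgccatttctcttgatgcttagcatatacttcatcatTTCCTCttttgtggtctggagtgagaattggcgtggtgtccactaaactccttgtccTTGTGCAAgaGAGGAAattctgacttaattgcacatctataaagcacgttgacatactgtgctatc
Mmp8, chr9:7558179-7558428, plus strand: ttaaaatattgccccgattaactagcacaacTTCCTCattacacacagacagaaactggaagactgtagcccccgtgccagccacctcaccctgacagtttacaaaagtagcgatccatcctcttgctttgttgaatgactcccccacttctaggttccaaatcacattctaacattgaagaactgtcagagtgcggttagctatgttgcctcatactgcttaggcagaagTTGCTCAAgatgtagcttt
In the window of Clec4e the C/EBP match begins 66 bases before the start and does not overlap the PU.1 match that begins 56 bases before it, with another PU.1 match at 123. In that of Mmp8 they begin at 19 and 219 bases. The C/EBP core stood in 5 of the 10 windows (Ngp, Ltf, Mmp8, Clec4e and Retnlg) and in 9.56% of all 32851 windows. The PU.1 core stood in 7 of the 10 (Fpr2, Csf3r, Ltf, Mmp8, Trem1, Clec4d and Clec4e) and in 23.3% of all. The NF-kB consensus, searched on both strands, stood in 1 of the 10, that of Csf3r, and in 7.25% of all. Of the 4 genes low in mutant mouse 2, all held the PU.1 core, and so did Csf3r, Ltf and Trem1. Of the same 4, Mmp8 and Clec4e, whose windows are shown, held the C/EBP core, and Fpr2 and Clec4d did not. These are matches of letters and do not show that a factor binds there.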

How the data were processed

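RNA of 4 ears, 2 mutant and 2 wild-type, was measured on one-colour Agilent arrays. Per the file headers, the deposited processed intensity of a spot was made with Agilent Feature Extraction 10.7.3.1. The program subtracted background, corrected a multiplicative trend and replaced dim values by surrogates, did not scale arrays to each other, and placed probes on mm9. The deposited raw mean and local background median are, per the file headers, uncorrected intensities. Flags deposited by the authors mark spots well above background, saturated or outlying. The authors' series table holds linear ratios of the processed intensity to the array median, as found from the deposited values, which matched to 1.5e-05 in log2 at 59305 spots of each array.

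Spots at row up to 120 and column from 140 were set to missing on the array of mutant mouse 2. Control spots and outlier flags were left out. Values are log2 processed intensity minus each array's 75th percentile of spots outside that corner (593 to 662). A probe was tested when well above background on every usable array of at least 1 group, and each gene by its brightest tested probe (23818 genes, 33770 probes). Mutant minus wild type was estimated with limma 3.58.1 (lmFit, then eBayes) in R 4.3.3, without pairing, two-sided, with Benjamini-Hochberg adjustment over all genes at 0.05 and 2.77 prior degrees of freedom. Errors with ± are limma's moderated standard errors. P-values reflect how mice of the same group vary, moderated over all genes. The fit was tested on simulated data. Tables were joined with pandas 2.3.3 in python 3.11.15, and figures drawn with matplotlib 3.10.9. Summed levels add the linear values relative to the percentile over genes of a list with a value on every array.

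The labels do not say what the replicate numbers mean, so no pairing was used. The within-group differences of mutants and wild types had a correlation of -0.26 over genes, which does not settle whether mice were paired. The 10 genes and the 22 lists were chosen with earlier results of these data known. Named are the 10 genes, from each list the 4 tested genes with the largest log2 fold change and no overlap between groups, the defining neutrophil markers, the 6 genes of most similar profile and Rela. Some genes that this rule names are not reported here. Gene symbols are those of the files, updated through RefSeq accessions. Alternatives changed the background correction, scaling, filter, probe choice, eBayes settings, corner, block and mice. A genome was not used here, so exon or UTR positions of probes are not reported.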

Additional observations from a re-analysis of the deposited data

How the results depend on the processing

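With 17 alternatives, 0 of the granule and receptor genes were called in any. The number of them outside the damaged corner (so without Fpr1) that were more than 0.5 below each other mouse in mutant mouse 2 was 3 with normexp and 4 in the other alternatives that kept this mouse and had no block. The number of all genes called, 4, was 7 with normexp, 2 with quantile normalization, 1 with no filter on dim probes, 1 with probes above background on all usable arrays and 13 with eBayes with trend and robust. It was 2 with the replicate block, although the labels do not state a pairing. With a crossed replicate block chosen after seeing the data it was 16. Leaving 1 mouse out gave 0 to 1. The median log2 fold change of the 8 genes, -0.20, ranged from -0.49 without mutant mouse 1 to 0.22 without mutant mouse 2. Directions turned without mutant mouse 2 for Mmp8 (0.22), Clec4d (0.42) and Clec4e (0.14), where mutant mouse 1 alone stood for its group, against -0.86, -1.06 and -0.91 without mutant mouse 1. They turned without mutant mouse 1 for Retnlg (-0.0066, against 0.22 without mutant mouse 2), and with the corner spots kept for Fpr1 (-2.41; limma, adjusted p = 0.878), where the dark spot of mutant mouse 2 entered. Over these alternatives the smallest adjusted p of any of the 8 genes was 0.410, for Clec4d. Signal near background limits Ltf and Ngp, which were not tested, and Mmp8 had -0.04 with normexp.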
